A study of Homo sapiens with 6 samples.

Results

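The genes described here are interleukins and interleukin receptor chains chosen among those with a row in the deposited table, matched by symbol. They are 10 of its 1630 genes, 3 ligands (IL11, IL23A and IL33) and 7 receptor chains (IL4R, IL15RA, IL31RA, IL22RA1, IL12RB1, IL18R1 and IL1RAP). EBI3, CXCL8 and IL1RAPL2 also have a row but are not among the 10, and are described apart. Total RNA was sequenced from U87MG, an established human glioblastoma cell line, in 6 libraries. In the labels 3 libraries have the genotype NC with the hairpin shControl, and 3 are a CREPT knockdown with the hairpin shCREPT. CREPT is the product of RPRD1B, a cofactor of RNA polymerase II that binds its C-terminal tail, and the series title asks about its part in proliferation and in the immune microenvironment. The labels name 1 knockdown hairpin and give neither its sequence nor whether libraries of a group are separate cultures. The p-values then measure only the spread among libraries, which may be technical.

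Interleukins are secreted proteins that carry signals between immune cells and between immune and tissue cells. Each acts through a receptor made of a specific chain and, usually, a shared chain. Receptors of the IL-4, IL-6, IL-12 and IL-15 kind pass the signal to Janus kinases and STAT transcription factors, and receptors of the IL-1 family pass it through MYD88 and IRAK kinases to NF-kappaB. In glioblastoma the family is studied because tumour cells both secrete interleukins and respond to those of infiltrating immune cells.

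How the genes came to be listed bears on every value below. Each of the 1630 genes is marked significant by the authors, with an absolute log2 fold change of at least 1.0009 and an adjusted p of at most 0.0497 in the authors' deposited table, so a gene had to differ between the groups to be listed. The folds and tests below therefore describe the size and the evenness of that difference and are no separate evidence for it. A gene without a row may be unexpressed, may not have passed the threshold, or may have been left out for another reason. The target gene RPRD1B has no row, so the knockdown was not checked. The listed values of a library add up to 31893.69 at the least and 33330.8 at the most, and the number of reads is unknown. The scale of the values (TPM or FPKM) is not stated. Among 163 genes with a 0 in some library and a known exon length, the smallest value above 0 had a median of 0.17 in the shortest 25% of genes and 0.03 in the longest 25%. The 15 myeloid markers and the 11 T cell markers, looked up to see whether other cells were present, all lack a row. Of 15 astroglial and glioblastoma markers 5 have a row, and their summed level moved with the groups, from 552.6 to 587.0 in shControl down to 82.0 to 98.3 in shCREPT. GFAP alone had a mean of 433.6 in shControl and 45.5 in shCREPT, and all 5 are down in the authors' deposited table. Of 9 epithelial markers 3 have a row, with a summed level of 30.8 to 56.5 in shControl and 29.4 to 34.0 in shCREPT. Inside that sum the members moved apart, with CLDN4 7.56-fold higher in shCREPT, KRT19 5.23-fold lower and MUC1 3.51-fold lower. Of 8 endothelial markers 2 have a row, with a summed level of 43.3 to 45.3 in shControl and 11.6 to 13.7 in shCREPT. Of 8 fibroblast markers 2 have a row, with a summed level of 1085 to 1099 in shControl and 431.6 to 492.4 in shCREPT. Nearly all of that sum was COL1A2, as COL3A1 read at most 0.39 in any library. The labels name U87MG cells only. The part of these markers in the results below was not tested, and fewer cells expressing a marker and less RNA per cell cannot be told apart in such libraries.

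The promoters of 4 genes that are up in the authors' deposited table are shown first, because each holds a match to TGANTCA. This is a loose form of the AP-1 motif TGA(C/G)TCA and is called the AP-1 motif below. IL11, IL23A and IL15RA hold TGAGTCA, while IL22RA1 holds TGAATCA, which only the loose form admits. Any part of AP-1 in the rise of the 4 genes was not tested. AP-1 is a dimer of FOS, JUN and related leucine zipper proteins that switches on many cytokine genes. The sequences are from RefSeq on GRCh38.p14, 5′ to 3′ on the strand of the gene, from 250 bases before the annotated start to 50 bases after it, with the motif in capitals. They lie at chr19:55370414-55370713 (IL11, minus strand), chr12:56338634-56338933 (IL23A, plus strand), chr10:5977562-5977861 (IL15RA, minus strand) and chr1:24143091-24143390 (IL22RA1, minus strand).
IL11: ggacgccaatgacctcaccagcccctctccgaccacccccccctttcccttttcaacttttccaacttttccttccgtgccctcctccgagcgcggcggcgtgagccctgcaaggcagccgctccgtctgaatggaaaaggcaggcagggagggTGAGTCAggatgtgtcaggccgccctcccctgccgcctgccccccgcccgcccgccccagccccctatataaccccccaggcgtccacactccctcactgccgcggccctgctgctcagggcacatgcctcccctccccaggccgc
IL23A: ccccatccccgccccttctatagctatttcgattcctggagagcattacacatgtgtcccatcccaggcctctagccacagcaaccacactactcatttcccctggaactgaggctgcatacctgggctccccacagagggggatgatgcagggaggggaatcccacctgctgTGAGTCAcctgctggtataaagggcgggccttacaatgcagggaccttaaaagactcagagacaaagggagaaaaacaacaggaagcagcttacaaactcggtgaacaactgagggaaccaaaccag
IL15RA: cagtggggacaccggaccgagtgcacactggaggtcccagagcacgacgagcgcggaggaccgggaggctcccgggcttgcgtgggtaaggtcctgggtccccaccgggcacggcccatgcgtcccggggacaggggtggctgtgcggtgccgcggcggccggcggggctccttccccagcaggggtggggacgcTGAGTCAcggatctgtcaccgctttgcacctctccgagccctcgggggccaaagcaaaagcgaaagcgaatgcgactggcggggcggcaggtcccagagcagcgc
IL22RA1: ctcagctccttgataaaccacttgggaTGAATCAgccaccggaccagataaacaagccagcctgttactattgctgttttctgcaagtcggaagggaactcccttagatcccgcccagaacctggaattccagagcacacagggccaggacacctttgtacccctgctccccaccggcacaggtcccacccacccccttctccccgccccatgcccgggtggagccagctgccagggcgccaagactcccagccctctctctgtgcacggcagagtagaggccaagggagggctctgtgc

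The match begins 96 bases before the annotated start in IL11, 77 in IL23A, 55 in this window of IL15RA and 223 in IL22RA1. RefSeq gives 14 such windows for 9 of the 10 genes, with no entry for IL31RA, and 4 of the windows belong to IL15RA. Windows 2 and 4 of IL15RA overlap and hold the same match, and window 3 holds another. So 4 of 9 genes had the loose form TGANTCA in at least 1 window, IL22RA1 only as TGAATCA. The same form was found in 9.37% of all genes with an entry. It was found in 13.2% of the 387 listed genes that are up and have an entry and 10.1% of the 583 that are down. Of all 35116 windows, which belong to 27305 genes, 7.71% held it. Shares for the stricter TGA(C/G)TCA were not worked out. A gene with more windows, such as IL15RA, has more room for a match.

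7 further motifs were searched on both strands. All 8 motifs, AP-1 among them, were chosen after the values were seen, so the shares are descriptions only. The NF-kappaB consensus was found in IL4R, IL15RA, IL18R1, IL22RA1 and IL23A, which is 5 of 9 genes, against 13.3% of all genes with an entry, 18.6% of the listed genes that are up and 19.6% of those that are down. The STAT motif TTCNNNGAA was found in IL15RA and IL33 (9.38% of all genes with an entry), the STAT6 form of that motif in IL18R1 (7.8%) and the TEAD motif GGAATG in IL12RB1 (16.7%). The CRE motif TGACGTCA (2.25%), the E-box CACGTG (8.77%) and the Smad motif GTCTAGAC (0.256%) are not in these windows. No match overlapped a match of another motif. IL1RAP, which is down in the authors' deposited table, has no match to any of the 8 motifs in its window. A match is a string of letters and does not show that a factor binds there.

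**Figure D1:**
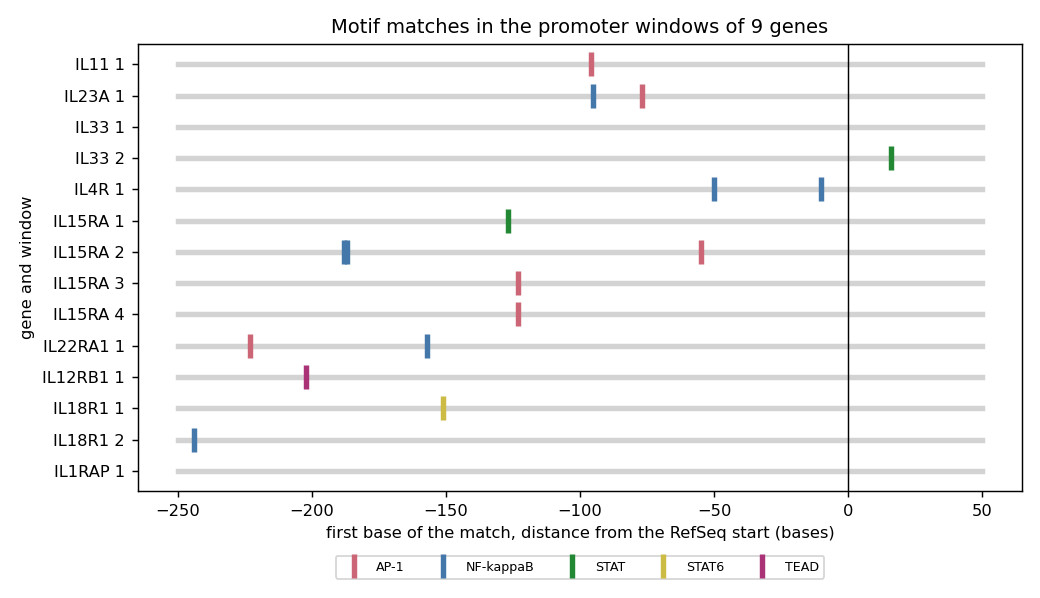
Motif matches in the 14 promoter windows of 9 genes, by the distance of the first base of the match from the RefSeq start (x axis, bases). Grey bars are the windows, numbered within a gene as RefSeq lists them, and coloured ticks are matches to 5 motifs. AP-1 ticks mark the loose form TGANTCA and lie in IL11, IL23A, IL22RA1 and windows 2 to 4 of IL15RA.

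In shCREPT cells 2 of the 3 ligands among the 10 genes were higher and 1 was lower. Of the 7 receptor chains among them, 6 were higher and 1 was lower. That makes 8 of 10 genes up in the authors' deposited table, where 40.3% of all listed genes are up and 59.7% are down. With EBI3, CXCL8 and IL1RAPL2 counted in, 4 of 5 ligands and 6 of 8 receptor chains with a row are up there. The groups did not overlap in any of the 10 genes, which holds for 93.3% of all listed genes. A limma fit on log2(value + 1) left out genes that did not reach 1 in 3 or more libraries, and 7 of the 10 genes passed. It called 6 of those 7 higher and 1 lower at a Benjamini-Hochberg adjusted p under 0.05, where 40.6% of all 1184 tested genes were called higher, 57.3% lower and 97.9% either way. IL23A and IL22RA1 passed the filter through their shCREPT values, so these counts and the next median are descriptions only. The median log2 change was 0.77 over the 7 tested genes and −0.76 over all 1184. Rescaling by median of ratios, which raises the shCREPT libraries by a log2 value of 0.88 relative to the controls, moved the median over all tested genes to −0.13. Under that rescaling each rise below is larger and the fall of IL1RAP is smaller.

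**Figure D2:**
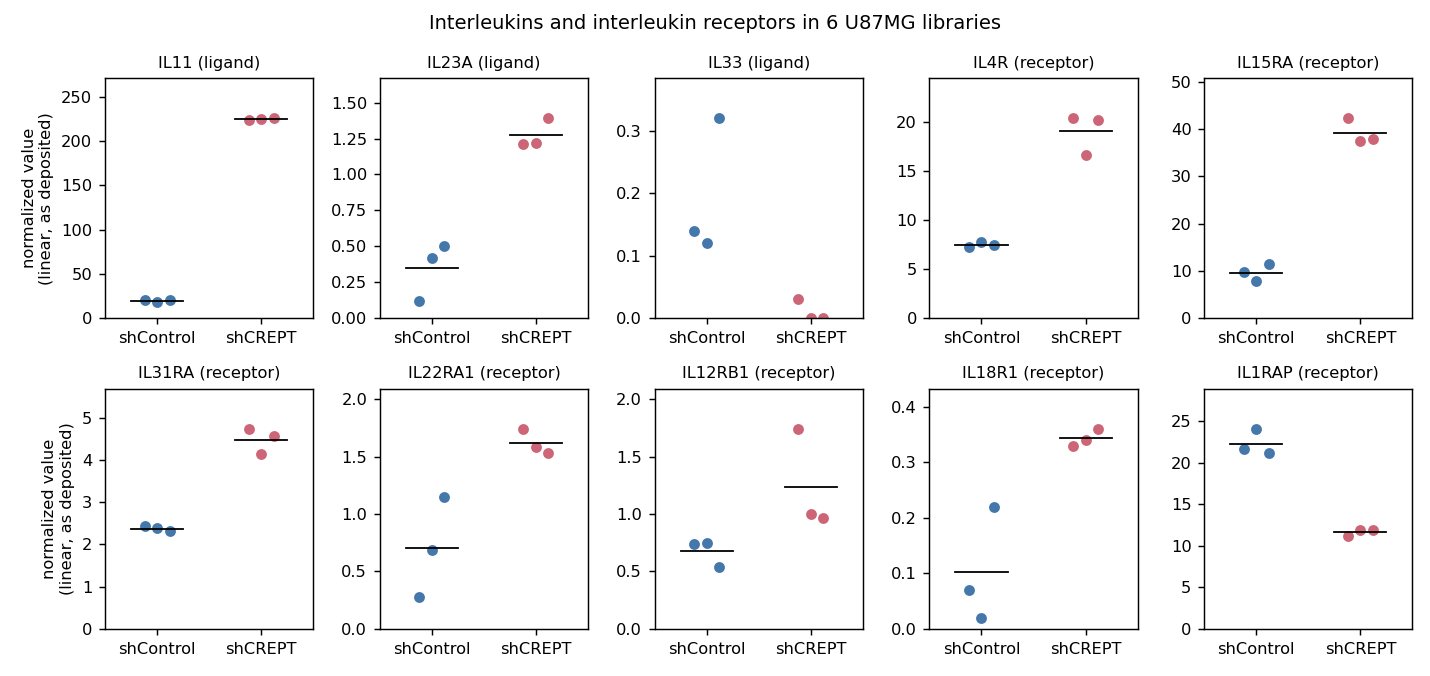
Normalized value of each gene in each of the 6 libraries (y axis, linear scale as deposited, starting at 0 and different in each panel). Points are libraries, from replicate 1 to 3 left to right, and bars are group means, left out for IL33, which is listed at 0 in 2 libraries; the groups do not overlap in any panel.

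Among the ligands, IL11 had the highest values on the deposited scale and, of the 2 tested, the larger change. IL11 is a cytokine of the IL-6 family that signals through IL11RA and the shared chain gp130 and is known for roles in fibrosis and in epithelial tumours. Its gene (ENSG00000095752) lies on chromosome 19 from 55364389 to 55370463 on the minus strand (GRCh38, GENCODE v29). The shControl libraries read 21, 18.04 and 20.04, and the shCREPT libraries 223.65, 225.5 and 225.83. The shCREPT libraries lay within 2.18 of each other and 202.65 above the highest control. The ratio of the means was 11.4 and the log2 change 3.45 ± 0.09 (SE; limma adjusted p = 1.39e-06). IL11 was 65th of 657 genes by fold among those up in the authors' deposited table. On the deposited scale it went from rank 281 of 1630 listed genes in shControl to rank 24 in shCREPT. Its coefficient of variation over the shCREPT libraries was 0.522%, against a median of 4.64% over the 43 listed genes with a shCREPT mean of 100 to 500, and it was the least variable of them. In shControl its coefficient of variation was 7.67%.

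Neither receptor chain of IL11, IL11RA or IL6ST (gp130), has a row. Of the 14 protein-coding genes within 100 kb of IL11, COX6B2, which encodes a cytochrome c oxidase subunit, has a row. It read 0.66, 0.21 and 1.23 in shControl and 2.19, 1.94 and 2.67 in shCREPT. Over all 10 genes, 1 of 50 protein-coding neighbours within 100 kb has a row, and it is this gene. The share of all protein-coding genes with a row was not worked out, so this count is a description only.

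IL23A encodes the p19 subunit, which joins IL12B to form IL-23, a cytokine that sustains T helper cells of the IL-17 type. The gene lies on chromosome 12 from 56334174 to 56340410 on the plus strand. The promoter window shown above, from 56338634 to 56338933, lies inside this locus. The locus is the whole GENCODE gene, and the starts of its single transcripts were not compared with the RefSeq start. IL23A read 0.12, 0.42 and 0.5 in shControl and 1.21, 1.22 and 1.39 in shCREPT. All values were low, the shCREPT libraries were close together and the control libraries were spread, with coefficients of variation of 7.94% and 57.8%. The log2 change was 0.77 ± 0.13 (SE; limma adjusted p = 0.001), and the ratio of the means was 3.67. A pseudocount of 0.1 moved the change to 1.74 and one of 5 to 0.23. The partner subunit IL12B and the specific receptor chain IL23R have no row.

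IL33 is a nuclear alarmin of the IL-1 family, released by damaged cells, that signals through IL1RL1 and IL1RAP. Its gene lies on chromosome 9 from 6215786 to 6257983 on the plus strand. It read 0.14, 0.12 and 0.32 in shControl and 0.03 in shCREPT replicate 1, and it is listed at 0 in shCREPT replicates 2 and 3. The authors' deposited table gives it a log2 fold of −4.54 with an adjusted p of 0.0129. These values are near the 2 decimals the table keeps, and IL33 was too low for the limma fit, so no fold of the means is given.

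EBI3 and CXCL8, 2 further genes of a list of 44 interleukin ligand genes, also have a row, and 39 of the 44 have none. EBI3, the subunit that IL-27 and IL-35 share, is listed at 0 in shControl replicate 1, read 0.92 and 0.26 in replicates 2 and 3, and read 3.15, 2.39 and 3.99 in shCREPT. The authors' deposited table gives it a log2 fold of 3.87, and its log2 change in the limma fit was 1.62 ± 0.26 (SE; adjusted p = 0.000865). CXCL8, the neutrophil chemoattractant once named interleukin 8, went from 5.07 ± 0.368 to 10.5 ± 0.824 (SD, n = 3). The limma fit called the 4 tested genes of this list higher, against 40.6% of all tested genes, and IL33 was not tested. EBI3, like IL23A, passed the filter through its shCREPT values alone, so its direction was fixed by the filter. Genes without a row include IL1A, IL1B, IL6, IL12A, IL15 and IL18.

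The listed receptor chains with the highest values on the deposited scale were IL15RA, IL4R and IL1RAP, and the first 2 rose. IL15RA binds IL-15 with high affinity and presents it to cells that carry IL2RB and IL2RG. Its gene lies on chromosome 10 from 5943639 to 5978187 on the minus strand. It read 9.71, 7.87 and 11.44 in shControl and 42.29, 37.58 and 37.96 in shCREPT. The lowest shCREPT library was 26.14 above the highest control. IL15RA rose 4.06-fold, and its log2 change was 1.93 ± 0.14 (SE, limma, adjusted p = 2.34e-05). IL15, IL2RB and IL2RG have no row, and neither has IL2RA, its neighbour on the chromosome.

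IL4R is the alpha chain that binds IL-4 and, with IL13RA1, serves IL-13. Its gene lies on chromosome 16 from 27313668 to 27364778 on the plus strand. It read 7.27, 7.79 and 7.47 in shControl and 20.37, 16.6 and 20.16 in shCREPT. The control libraries were nearly level, and shCREPT replicate 2 was the lowest of its group. IL4R rose 2.54-fold, and its log2 change was 1.23 ± 0.10 (SE, limma, adjusted p = 3.94e-05), or 2.03 under median-of-ratios rescaling. IL4, IL13, IL13RA1 and IL2RG have no row.

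IL31RA, which pairs with OSMR to bind the itch cytokine IL-31, lies on chromosome 5 from 55851379 to 55922853 on the plus strand. It read 2.43, 2.39 and 2.31 in shControl and 4.73, 4.13 and 4.56 in shCREPT. Both groups were tight and lay 1.70 apart at their nearest. IL31RA rose 1.88-fold, and its log2 change was 0.70 ± 0.08 (SE, limma, adjusted p = 0.000173). The change was 1.35 under median-of-ratios rescaling and 0.36 with a pseudocount of 5. OSMR and IL31 have no row, and neither has IL6ST, which lies within 100 kb of it.

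IL22RA1 is the specific chain for IL-22 and, in other pairings, for IL-20 and IL-24, and is known from epithelia rather than from immune cells. The gene lies on chromosome 1 from 24119771 to 24143121 on the minus strand. It read 0.28, 0.69 and 1.15 in shControl and 1.74, 1.58 and 1.53 in shCREPT. The control libraries spread over a range of 0.87 and the shCREPT libraries over 0.21, and the gap between the groups was 0.38. IL22RA1 rose, and its log2 change was 0.65 ± 0.19 (SE, limma, adjusted p = 0.0125), the highest adjusted p of the 7 tested genes. The change was 1.25 with a pseudocount of 0.1, 0.22 with one of 5 and 1.08 under median-of-ratios rescaling. IL22, IL10RB and IL20RB have no row.

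IL12RB1 and IL18R1 were too low for the limma fit. IL12RB1 is the chain that the receptors of IL-12 and IL-23 share, and lies on chromosome 19 from 18058995 to 18098944 on the minus strand. It read 0.74, 0.75 and 0.54 in shControl and 1.74, 1 and 0.97 in shCREPT. The difference rested mostly on shCREPT replicate 1, since the other 2 libraries were 0.22 to 0.25 above the highest control. The authors' deposited table gives it a log2 fold of 1.12 with an adjusted p of 0.0389, and here the ratio of the means was 1.83. IL12RB2 and IL23R, the chains it pairs with, have no row. IL18R1, the ligand-binding chain for IL-18, lies on chromosome 2 from 102311529 to 102398775 on the plus strand. It read 0.07, 0.02 and 0.22 in shControl and 0.33, 0.34 and 0.36 in shCREPT. The shCREPT libraries were within 0.03 of each other, and the control libraries differed up to 11-fold. The authors' deposited table gives it a log2 fold of 2.01 with an adjusted p of 0.0127. IL18 and IL18RAP have no row.

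IL1RAP was the 1 tested gene of the 10 that fell. It is the accessory chain without which the receptors of IL-1, IL-33 and IL-36 do not signal, and lies on chromosome 3 from 190514051 to 190659750 on the plus strand. It read 21.67, 24.03 and 21.17 in shControl and 11.18, 11.94 and 11.87 in shCREPT. The groups lay 9.23 apart at their nearest, with shCREPT 1.91-fold lower. The log2 change was −0.88 ± 0.08 (SE; limma adjusted p = 7.5e-05), and −0.05 under median-of-ratios rescaling, where the call was lost (adjusted p = 0.598; 1.31e-05 to 0.598 over its alternatives). Its fall was close to the median change of all tested genes (−0.76). IL1R1, IL1RL1 and IL1RL2, the ligand-binding chains it joins, have no row. IL1RAP and IL33 are thus the 2 listed genes among IL-33 and its receptor chains. Both are down in the authors' deposited table, as are 59.7% of all listed genes, and IL33 was too low for the limma fit.

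**Figure D3:**
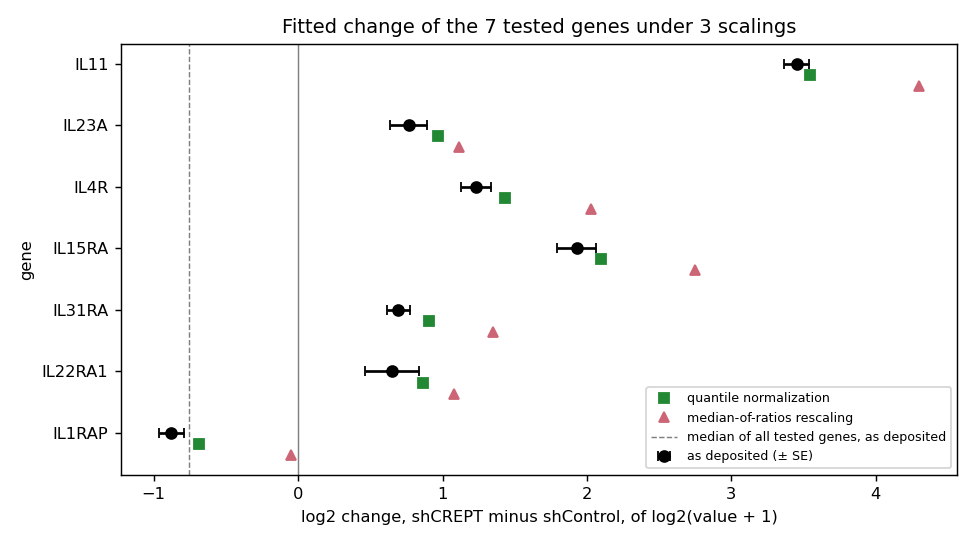
Fitted log2 change (x axis, shCREPT minus shControl, of log2(value + 1)) of the 7 tested genes. Black points are the values as deposited with their SE, green squares follow quantile normalization and red triangles median-of-ratios rescaling; the 6 rises stay above 0 and IL1RAP moves from −0.88 to −0.05.

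IL1RAPL2, 1 further gene of a list of 44 receptor chain genes, has a row and 36 of the 44 have none. It is a neuronal relative of IL1RAP and fell from 1.52, 1.96 and 1.07 to 0.02, 0.16 and 0.04. Its log2 change was −1.22 ± 0.14 (SE, limma, adjusted p = 0.000195). Of the 6 tested genes of that list, 4 were called higher and 2 lower, against 40.6% and 57.3% of all tested genes. IL1RAPL2 passed the filter through its shControl values alone, so the count is a description only.

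The 10 genes lay at different places among the listed folds. Of the 10, IL11 and IL33 had the largest folds in their directions, IL33 being 59th of 973 genes down. IL31RA and IL12RB1 were 544th and 546th of 657 genes up, with log2 fold changes of 1.13 and 1.12 in the authors' deposited table, close to the smallest that is listed.

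**Figure D4:**
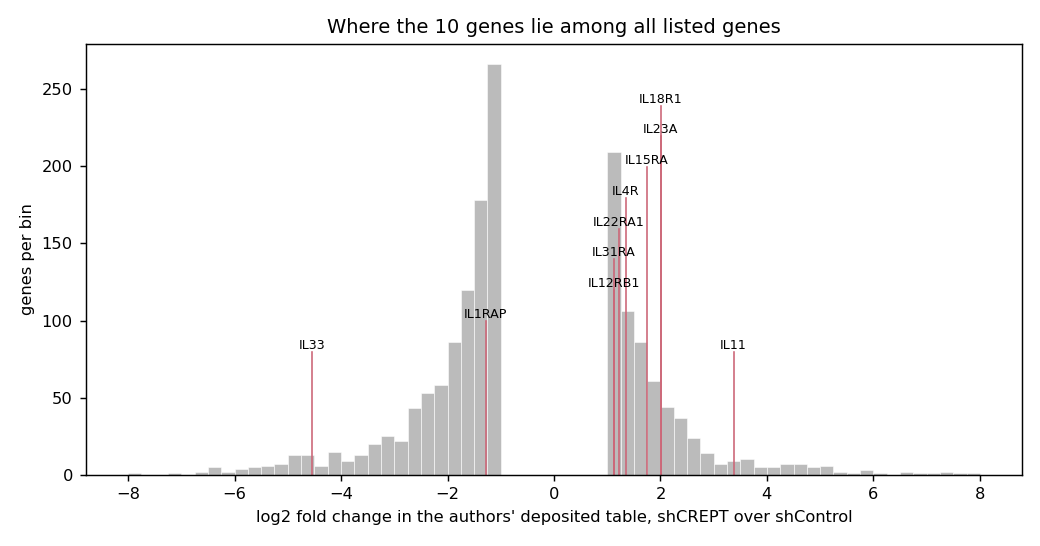
Log2 fold changes of all 1630 genes in the authors' deposited table (x axis, shCREPT over shControl; bars count genes in bins of 0.25) with the 10 genes marked by red lines, whose heights carry no value. No gene lies between −1 and 1, 8 genes lie to the right and 2 to the left.

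Where other genes share exons with these loci, reads could have been divided between them. The labels do not say whether the libraries keep the strand. IL4R shares 5.75% of its exon bases with an antisense RNA, IL15RA 4.16% and IL1RAP 4.63% with noncoding RNAs on their own strand, and IL18R1 2.18% with IL1RL1, a receptor gene on the same strand. IL12RB1 overlaps MAST3 on the other strand with no shared exon base. None of these other genes has a row. IL11, IL23A, IL33, IL31RA and IL22RA1 overlap no other gene in GENCODE v29.

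The partner chains and signalling genes gave few rows. The 10 genes have 28 known partners among ligand subunits and receptor chains, of which 24 are not among the 10, and 0 of those 24 have a row. The 10 were chosen among interleukins and receptor chains with a row, so a partner outside them could hardly have one. That count, and each partner named above as without a row, is a description only. None of 27 genes of JAK-STAT signalling, such as JAK1, STAT3, STAT6 and SOCS3, and none of 23 genes of IL-1 and Toll receptor signalling, such as MYD88, IRAK1 and NFKBIA, has a row. In a list of 16 ligands and receptors of the gp130 family, IL11 and IL31RA have rows and 14 genes have none. The share of all annotated genes with a row was not worked out. These counts therefore do not show fewer rows than other genes would give.

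Of 11 AP-1 factors, 2 have a row and both rose, against 40.6% of all tested genes. BATF2 passed the filter through its shCREPT values alone, so its direction was fixed by the filter. FOSL1, a FOS relative that rises with growth signals, went from 25.29, 24.04 and 28.28 in shControl to 79.57, 81.72 and 71.12 in shCREPT, 2.99-fold higher. BATF2, a BATF relative known from interferon responses, went from 0.34, 0.7 and 0.55 to 2.05, 2.2 and 2.51. Their log2 changes were 1.55 ± 0.10 and 1.09 ± 0.12 (SE; limma adjusted p = 1.65e-05 and 0.000113). A pseudocount of 0.1 moved the changes of the low genes BATF2, EBI3 and IL1RAPL2 to 1.94, 3.27 and −3.27. FOS, JUN, JUNB and FOSL2 have no row.

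Of 16 genes known as STAT3 targets or acute phase genes, 4 have a row, of which 1 rose and 3 fell, and 12 have none. Of all tested genes 40.6% were called higher and 57.3% lower, so the split lay near that of the table, and SERPINA3 passed the filter through its shControl values alone. The growth factor gene VEGFA went from 558 ± 12.3 to 242 ± 3.76, the transcriptional repressor BCL6 from 56.2 ± 1.69 to 24.3 ± 1.67, and the acute phase serpin SERPINA3 from 7.83 ± 0.709 to 0.71 ± 0.166 (SD, n = 3). MYC rose, and its log2 change was 1.83 ± 0.08 (SE, limma, adjusted p = 6.25e-06). The median log2 change over these 4 was −1.19, against −0.76 over all tested genes. Under median-of-ratios rescaling the changes of VEGFA, BCL6 and SERPINA3 were −0.33, −0.32 and −1.78.

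**Figure D5:**
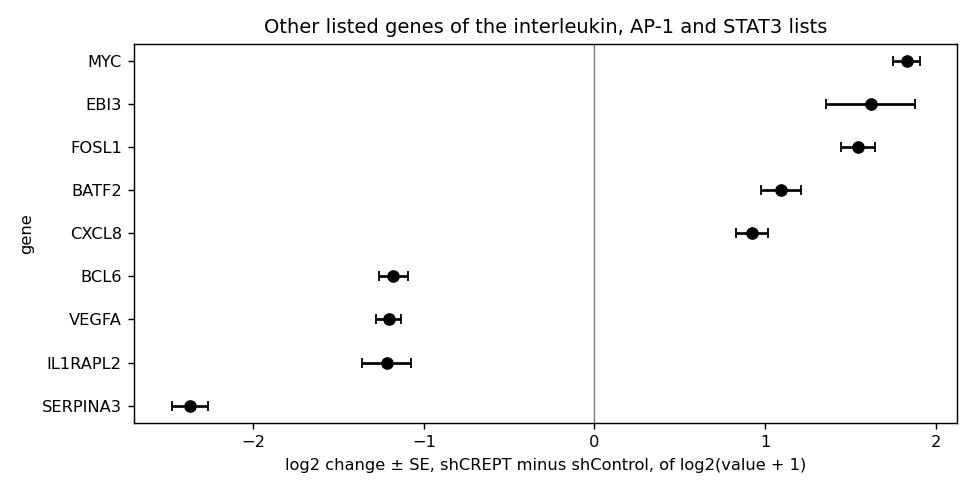
Log2 change with its SE (x axis, shCREPT minus shControl, of log2(value + 1)) of the 9 other tested genes of the interleukin, AP-1 and STAT3 lists. EBI3, MYC, FOSL1, BATF2 and CXCL8 lie above 0, and VEGFA, BCL6, IL1RAPL2 and SERPINA3 below it.

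The genes nearest in profile to IL11 and IL15RA, the 2 of the 10 with the highest mean over all 6 libraries, were taken by the Euclidean distance between log2(value + 1) profiles centred over the 6 libraries. Every listed gene differs between the groups, so a near profile mostly means a change of similar size. Shared control of these genes was not tested. Nearest to IL11 were PVRIG2P (distance 0.543), LINC02582 (0.559) and ENSG00000250509 (0.587). The pseudogene PVRIG2P is listed at 0 in shControl replicates 1 and 2 and read 11.16, 12.82 and 15.23 in shCREPT. The noncoding RNA LINC02582 went from 7.19 ± 1.42 to 77.7 ± 6.57 (SD, n = 3), 10.8-fold higher. Nearest to IL15RA were the semaphorin SEMA7A (0.276), the antisense RNA IGFL2-AS1 (0.287) and MYC (0.302). MYC went from 16.0 ± 0.792 to 59.5 ± 1.72 (SD, n = 3), where IL15RA went from 9.67 ± 1.79 to 39.3 ± 2.62.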

How the data were processed

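Per the labels' protocols, total RNA (1.3 ug per library) was purified on a Qiagen column and prepared with a NEBNext Ultra kit. The tools HISAT2 and HTSeq and the build GRCh38 are named, per the submitters' processing notes, with no role or version. The authors deposited 1 table of 1630 genes: a normalized signal per library, written with 2 decimals, and, per the file headers, the fold change (a ratio) with its log2, and a raw and an adjusted p-value. How they normalized is not given in the sources used, and depth is unknown. Columns were matched to samples by library name.

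Groups were compared with limma 3.58.1 (R 4.3.3) on log2(value + 1) over the 1184 genes that reached 1 in 3 or more libraries, with Benjamini-Hochberg adjustment over all of them. A change on this scale understates that of low genes. The fit was also run on simulated data in which most genes did not differ between the groups. Most genes of this selected table do differ, so that run says little about the p-values here. The design assumed a table of all genes and was run on a selected one. An exact two-sided permutation test cannot reach a p below 0.1 with 3 libraries in each group and was not used. No 2 libraries held identical values. The rule for naming took all 10 genes, every gene with a row from 7 gene lists, and the 3 nearest profiles of 2 genes; COX6B2 was named after its values were seen. The genes and lists were chosen with earlier results of these data known. Loci came from GENCODE v29 and promoters from RefSeq, both on GRCh38. Alternatives were other pseudocounts and filters, 2 rescalings, trend and robust options, a replicate block, and each library left out. Python 3.11.15, pandas 2.3.3 and matplotlib 3.10.9 were used.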

Additional observations from a re-analysis of the deposited data

How the results depend on the processing

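The 7 tested interleukin genes kept their direction in every alternative that tested them and kept their call in 94 of 95 fits; the exception was IL1RAP under median-of-ratios rescaling (log2 change −0.05, limma adjusted p = 0.598), whose factors follow the down majority of this selected table. That rescaling left 0 of the interleukin genes called lower and called 377 genes lower in all, against 678. With no filter, all 10 interleukin genes were called, 2 of them lower; IL33, IL12RB1 and IL18R1 then had log2 changes of −0.24, 0.40 and 0.29 (limma adjusted p = 0.0409, 0.0374 and 0.0208). With a minimum of 10 in 3 libraries, 487 genes were tested and 485 called (214 higher, 271 lower), among them 4 of 4 interleukin genes, 3 higher, since fewer genes were tested. Without any 1 library the fit gave 1137 to 1152 called genes (475 to 481 higher, 662 to 672 lower) and 7 called interleukin genes, 6 higher and 1 lower, each time. The deviations of libraries with the same replicate number were not correlated in common (r = −0.109, 0.018 and −0.179), and the replicate block gave 1156 called genes and 7 called interleukin genes. As the table gives no read counts, depth gave no bound and no count test was run.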
